A study of Homo sapiens with 8 samples.

Results

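The genes described here are 10 transcription factor genes of the AP-1 and immediate early group, JUN, JUNB, JUND, FOS, FOSB, FOSL1, FOSL2, EGR1, IER2 and MYC, taken by name from a table of 26760 genes. All 10 had rows in the table, and 9 of them, without FOSB, had enough counts to be among the 12303 genes tested. RNA was sequenced from 8 libraries of LK2, an established human lung squamous carcinoma line, in 4 groups of 2. GFP cells carried pLEX_306-GFP (replicate 1) or pLEX_307-GFP (replicate 2), and constitutive DNp63 cells carried pLEX_306-DNp63 or pLEX_307-DNp63. DNp63 is p63 without its N-terminal activation domain, a transcription factor of squamous epithelium. Inducible cells carried pLIX_403-DNp63 and were kept for 6 days without doxycycline (uninduced) or with it at 2 µg per ml (induced). No library analysed here had doxycycline without the DNp63 vector, so the drug and DNp63 cannot be told apart in the induced comparison. In the GFP and constitutive groups the replicate number is also the vector number. The 2 libraries of each such group thus came from cells with different vectors. Their spread includes any difference between the vectors, for which the fit on 4 group means has no term. Whether the libraries of an inducible group came from separate infections or cultures is not in the labels. The p-values measure only the spread between the libraries sequenced, which may be technical in the inducible groups.

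AP-1 is a dimer of a JUN protein (JUN, JUNB, JUND) with another JUN protein or with a FOS protein (FOS, FOSB, FOSL1, FOSL2), held together by a leucine zipper, and it binds short palindromic DNA sites. FOS, FOSB, JUN, JUNB, EGR1 and IER2 are classical immediate early genes, which are transcribed soon after serum, growth factors or stress without new protein synthesis, whereas JUND is expressed more steadily. FOSL1 and FOSL2, also called FRA1 and FRA2, lack the strong activation domain of FOS, and AP-1 dimers that contain them are known regulators of keratinocyte genes. MYC, a growth regulator that pairs with MAX, responds to the same signals.

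TP63 counts followed the labels, at 0.738 and 1.90 CPM (the count scaled to a common library size, in the usual CPM unit) with GFP, 1849 and 3808 with constitutive DNp63, 12.7 and 14.7 uninduced and 412 and 421 induced. Library totals ranged from 2758158 to 10372248 counts, so that 3 counts, the limit that a count of 0 allows, corresponded to 0.289 to 1.09 CPM. Of 10 squamous and basal epithelial markers KRT14 had no count in any library, and the list summed to 20.8 to 32.5 CPM in the 4 control libraries, 1285 and 1536 with constitutive DNp63 and 118 and 119 induced. Fibroblast markers summed to 8.38 to 30.8 CPM, with COL3A1 and DCN at 0 counts throughout, and immune and endothelial markers to 1.48 to 4.62 CPM, with CD3E, PECAM1 and CDH5 at 0. Of 6 neural markers, none at 0 in all libraries, the summed level was 456 and 800 CPM with GFP against 126 and 193 under constitutive DNp63, and 795 and 723 uninduced against 458 and 389 induced. Heat shock genes, 9 in all, summed to 1770 and 1746 CPM with GFP against 2227 and 2061 under constitutive DNp63, and to 2397 and 3089 uninduced against 3798 and 3514 induced. The squamous, neural and heat shock lists thus differed between DNp63 and control libraries in both systems, without overlap, as did the proliferation list given with MYC below. Among single genes, 44.4% of those tested did not overlap in the constitutive and 46.9% in the inducible system. The part of these lists in the values of the 10 genes was not tested. A list of 12 ATF4 stress response genes summed to 3845 CPM in GFP replicate 1 against 1299 in replicate 2, and to 5426 against 2759 with constitutive DNp63, while the inducible libraries lay between 1499 and 1706. In bulk RNA, a change in the share of cells and a change in RNA per cell cannot be told apart.

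The 250 bases before the start of 4 members are printed from RefSeq (GRCh38.p14), whose promoter table matched 8 of the 10 genes. FOSL2 is shown because it had the largest called change, JUN and JUND because both were highest in GFP cells, and EGR1 because its replicates differed widely. These traits do not single them out, since FOS also had its highest mean with GFP and widely different GFP replicates, and is not printed. JUN, JUND and EGR1 are also the only matched members in which a searched motif was found. Capitals mark matches to TGACNTCA, the cyclic AMP response element and its close variants, in JUN and JUND, and to the CArG box, the serum response factor motif, in EGR1. FOSL2 has no capitals because none of these motifs was found in it. The windows are chr2:28392608-28392857 (+ strand) for FOSL2, chr1:58784048-58784297 (- strand) for JUN, chr19:18281623-18281872 (- strand) for JUND and chr5:138465229-138465478 (+ strand) for EGR1.
FOSL2: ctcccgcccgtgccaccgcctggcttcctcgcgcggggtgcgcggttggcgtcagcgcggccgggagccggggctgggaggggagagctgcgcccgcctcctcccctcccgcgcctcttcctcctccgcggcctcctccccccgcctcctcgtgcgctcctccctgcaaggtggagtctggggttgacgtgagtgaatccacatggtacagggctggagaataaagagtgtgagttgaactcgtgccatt
JUN: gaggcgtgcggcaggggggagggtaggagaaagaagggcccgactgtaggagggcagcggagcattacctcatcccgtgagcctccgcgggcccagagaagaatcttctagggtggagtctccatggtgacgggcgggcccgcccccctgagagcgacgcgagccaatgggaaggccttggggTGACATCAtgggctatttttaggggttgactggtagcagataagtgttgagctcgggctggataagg
JUND: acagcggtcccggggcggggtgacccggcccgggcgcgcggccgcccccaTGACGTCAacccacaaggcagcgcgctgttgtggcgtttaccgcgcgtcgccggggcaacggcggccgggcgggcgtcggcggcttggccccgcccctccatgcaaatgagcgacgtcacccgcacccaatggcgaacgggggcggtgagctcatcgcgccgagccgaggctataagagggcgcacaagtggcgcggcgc
EGR1: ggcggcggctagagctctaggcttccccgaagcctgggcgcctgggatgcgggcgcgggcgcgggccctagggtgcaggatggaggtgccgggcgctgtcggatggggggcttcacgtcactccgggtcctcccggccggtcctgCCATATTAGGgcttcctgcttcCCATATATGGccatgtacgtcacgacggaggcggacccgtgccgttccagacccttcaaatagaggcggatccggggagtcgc
Motifs were searched on both strands, and a palindromic match was counted once. TGACNTCA was in 6.87% of all 35116 promoter windows of this length, and among the 8 matched members it was in JUN, as TGACATCA from 67 to 60 bases before the start, and in JUND, as TGACGTCA from 200 to 193 bases before it. The CArG box was in 1.16% of windows, and EGR1 held it at 105 to 96 and at 83 to 74 bases before the start. EGR1 also held GCGNGGGCG, the kind of site that EGR1 itself binds, which was in 8.41% of windows. TGANTCA, the AP-1 consensus site (6.57% of windows), and the p53 family half-site (5.57% of windows) were in none of the 8 member windows.

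Across the FOS family, FOSL2 was the member that rose with DNp63. GFP replicates 1 and 2 held FOSL2 at 129 and 42.5 CPM, constitutive DNp63 libraries at 468 and 399, uninduced libraries at 79.1 and 76.3 and induced ones at 169 and 150.0. The 4 DNp63 libraries all lay above the 4 control libraries, the 1 member of the 9 for which the libraries stood apart in this way, against 7.43% of all tested genes in either direction. FOSL2 rose by 2.35 ± 0.39 on the log2 scale (SE, n = 2 per group; edgeR quasi-likelihood test, adjusted p = 0.00515) with constitutive DNp63, a fold of 5.11. In the induced comparison its log2 fold change was 1.04 ± 0.38, with a 95% interval of 0.21 to 1.87, and it was not called there (adjusted p = 0.580). Averaged over both systems it rose by 1.70 ± 0.27 (adjusted p = 0.00467). The difference between the systems, induced minus constitutive, was −1.31 (95% interval −2.49 to −0.13; adjusted p = 0.357). In the order of group means, constitutive DNp63 stood above induced, and induced above GFP and uninduced, which overlapped. The GFP libraries were 3.05-fold apart. The constitutive value was 3.34 without GFP replicate 1 and 1.73 without GFP replicate 2, and the difference between systems was called without GFP replicate 1, at −2.30 (adjusted p = 0.00748). In a fit on the 4 inducible libraries alone, FOSL2 was called in the induced comparison, at 1.05 (adjusted p = 2.2e-07).

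**Figure D1:**
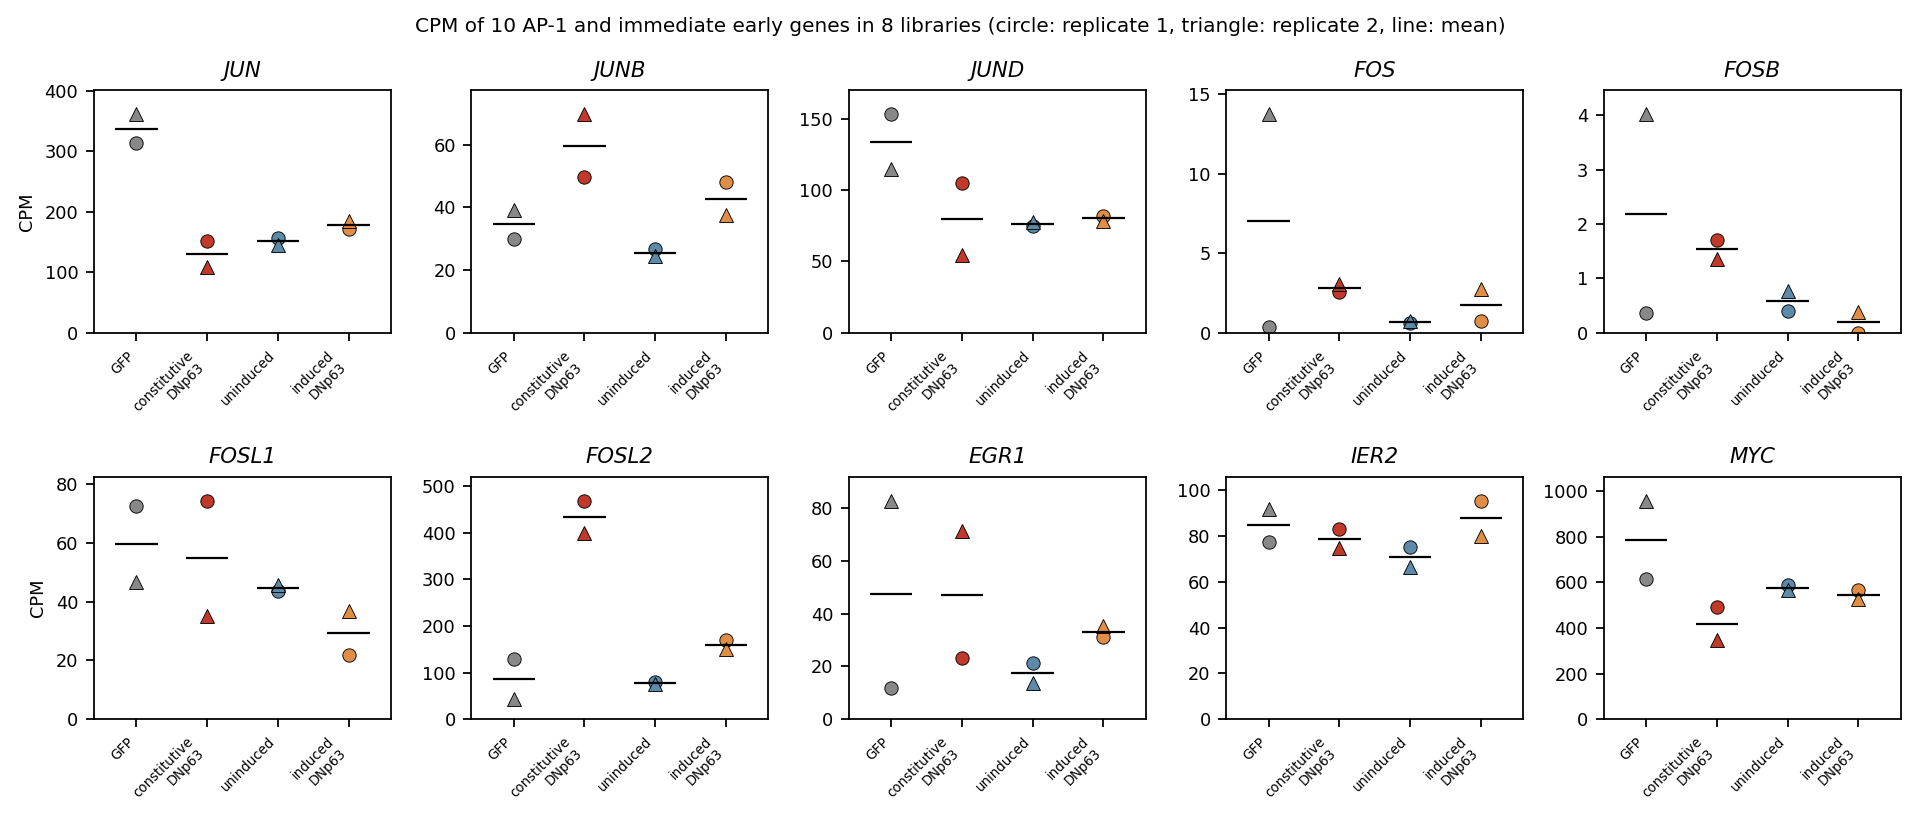
Level of each of the 10 genes in CPM on linear axes from 0 in the 8 libraries, by group; points are libraries and lines are group means. FOSL2 is higher in all 4 DNp63 libraries than in any control, JUN is highest with GFP, and FOS, FOSB and EGR1 have widely separated GFP replicates.

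FOSL1, the other FOS-related antigen gene, did not pass the test in any comparison. Its CPM was 72.6 and 46.7 in GFP cells, 74.2 and 35.2 under constitutive DNp63, 43.6 and 45.7 uninduced, and 21.7 and 36.9 induced. The constitutive groups overlapped and the inducible groups did not, with both induced libraries lower. Its log2 fold change was −0.13 (95% interval −0.94 to 0.69; adjusted p = 0.884) with constitutive DNp63 and −0.62 (−1.43 to 0.19; adjusted p = 0.945) with induced DNp63. In the fit on the inducible libraries alone the latter was −0.64 and was called (adjusted p = 0.0392). With the spread of all libraries it was −0.28 without induced replicate 1 and −1.04 without induced replicate 2, and not called in either.

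FOS and FOSB, the rapidly induced members, had few counts. FOS had 1 and 65 counts in GFP replicates 1 and 2, 9 and 16 with constitutive DNp63, 3 and 8 uninduced and 6 and 14 induced, or 0.369 and 13.7, 2.57 and 3.10, 0.603 and 0.776, and 0.740 and 2.75 CPM. The level in GFP replicate 2 stood apart from the 7 other libraries, and all neighbouring groups overlapped. The constitutive log2 fold change of FOS was −1.39 (95% interval −3.55 to 0.77; adjusted p = 0.450), and without GFP replicate 2 it was 2.86 (adjusted p = 0.355). The induced value was 1.18 (−1.42 to 3.79; adjusted p = 0.989), and it was 0.058 without induced replicate 2 and 1.92 without induced replicate 1. FOSB had 1 and 19 counts with GFP, 6 and 7 with constitutive DNp63, 2 and 8 uninduced and 0 and 2 induced. The ratio of induced to uninduced FOSB, from 2 against 10 counts, was 0.231 with a 95% exact counting interval of 0.0247 to 1.09, which covers counting error only.

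Per exon length, FOSL1 was the leading FOS family RNA in each control library and FOSL2 in each DNp63 library. Exon lengths came from an annotation of GRCh38, not the build of the counts, so levels compared between genes are approximate. The lead of FOSL1 in the controls depends on these lengths, 1840 bases for FOSL1 and 6794 for FOSL2. In CPM without them, FOSL2 was above FOSL1 in each control library except GFP replicate 2. FOSL1 made up 67.2% and 68.5% of the summed CPM per kb of the 4 FOS family genes with GFP and 66.5% and 68.1% uninduced. With DNp63 its share was 36.5% and 24.2% in the constitutive and 31.9% and 46.5% in the induced libraries. FOSL2 made up 32.4% and 16.9% with GFP and 32.7% and 30.8% uninduced, against 62.4% and 74.2% with constitutive and 67.5% and 51.2% with induced DNp63. For both genes the shares of the control and DNp63 libraries did not overlap, in either system. These are not 2 separate observations, since the 2 genes make up most of the sum and 1 share falls as the other rises. In the constitutive system the CPM of FOSL1 itself overlapped between the groups. FOS reached 12.6% in GFP replicate 2 and at most 2.17% in any other library. The ratio of FOSL2 to FOSL1 CPM, whose change between libraries does not depend on the lengths, was 1.78 and 0.909 with GFP, 6.31 and 11.3 with constitutive DNp63, 1.82 and 1.67 uninduced and 7.81 and 4.06 induced. The summed level of the family was 35.6 and 36.5 CPM per kb uninduced and 37.0 and 43.1 induced, and 58.7 and 37.0 with GFP and 110.5 and 79.1 with constitutive DNp63. These shares and ratios describe the libraries and carry no test.

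**Figure D2:**
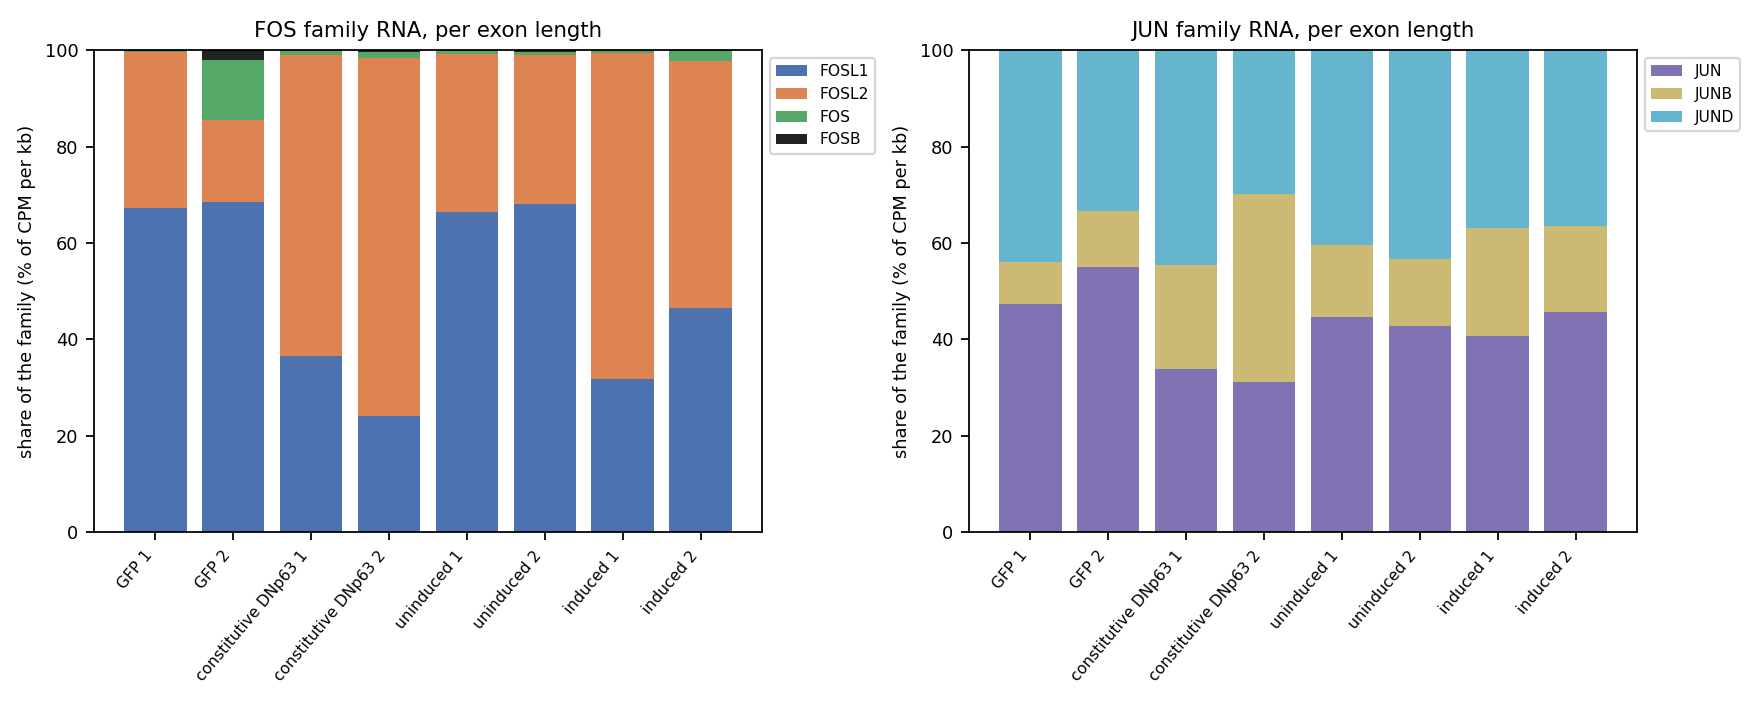
Share of each gene in the summed CPM per kb of its family (%, stacked bars) in each of the 8 libraries. FOSL1 holds 66.5% to 68.5% of the FOS family in the 4 control libraries and 24.2% to 46.5% in the 4 DNp63 libraries, and the JUNB share of the JUN family is larger in each DNp63 library than in any control.

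In the JUN family, JUNB rose in the comparison averaged over both systems and JUN fell with constitutive DNp63. JUNB, which can oppose JUN in growth control, had 29.9 and 39.3 CPM with GFP, 49.7 and 69.7 with constitutive DNp63, 26.7 and 24.4 uninduced and 48.2 and 37.5 induced. DNp63 and control libraries did not overlap within either system, although induced and GFP libraries overlapped with each other. Its log2 fold change was 0.78 ± 0.25 with constitutive DNp63 (adjusted p = 0.0866) and 0.75 ± 0.25 with induced DNp63 (adjusted p = 0.486), neither of them called, with a difference between systems of −0.03 (95% interval −0.82 to 0.76; adjusted p = 0.989). Averaged over both systems JUNB rose by 0.77 ± 0.18 (adjusted p = 0.0315). It was no longer called without GFP replicate 1 (adjusted p = 0.0605), uninduced replicate 1 (0.130) or 2 (0.181), or induced replicate 1 (0.187) or 2 (0.0747). The fit on the inducible libraries alone called JUNB in the induced comparison, at 0.77 (adjusted p = 0.00462). In the constitutive comparison JUNB was 0.51 without DNp63 replicate 2 (adjusted p = 0.254) and 0.99 without DNp63 replicate 1, where it was called (0.0344). It was also called with the replicate block, at 0.78 (adjusted p = 0.0376), and libraries with the same vector differed by 0.73 (pLEX_306) and 0.82 (pLEX_307).

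JUN, the founding AP-1 subunit, had 313 and 361 CPM in GFP cells, 152 and 109 under constitutive DNp63, 156 and 146 uninduced, and 172 and 185 induced. The GFP libraries stood above the other 6, and the uninduced libraries overlapped with those of constitutive DNp63. JUN fell by 1.37 on the log2 scale with constitutive DNp63 (SE 0.21, adjusted p = 0.00276), to 0.386 of the GFP level. With induced DNp63 its log2 fold change was 0.24 ± 0.20 (95% interval −0.20 to 0.69; adjusted p = 0.977). The difference between the systems was itself called, at 1.62 ± 0.29 (adjusted p = 0.0378), but not without GFP replicate 2 (0.0806), uninduced replicate 1 (0.238) or 2 (0.298), or induced replicate 1 (0.272) or 2 (0.212). The fall of 0.56 averaged over both systems (SE 0.14, adjusted p = 0.0453) was likewise not called without GFP replicate 2 (0.103), uninduced replicate 1 (0.211) or 2 (0.178), or induced replicate 1 (0.233) or 2 (0.156). Between the control groups, uninduced minus GFP, JUN differed by −1.16 ± 0.20, which did not pass the test (adjusted p = 0.164) and which shares its libraries with the comparisons above. DESeq2 called this control difference (adjusted p = 0.000804), as did edgeR without DNp63 replicate 1 (0.0239) or 2 (0.0251). In a fit on the 4 GFP and constitutive libraries alone, the adjusted p of JUN was 0.0545.

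JUND, the more steadily expressed subunit, had 153 and 115 CPM with GFP, 105 and 54.6 with constitutive DNp63, 74.5 and 77.6 uninduced and 82.1 and 78.1 induced. As for JUN, both GFP libraries were above the other 6. Its log2 fold change of −0.75 ± 0.28 with constitutive DNp63 did not pass the test (95% interval −1.38 to −0.13; adjusted p = 0.134), and leaving out single libraries moved it from −0.35 without DNp63 replicate 2 (adjusted p = 0.348) to −1.29 without DNp63 replicate 1, where it was called (0.00658). Libraries with the same vector differed by −0.54 (pLEX_306) and −1.07 (pLEX_307), and the fit with the replicate block called JUND, at −0.81 (adjusted p = 0.0258). With induced DNp63 it was 0.07 (−0.54 to 0.69; adjusted p = 0.996). Within the JUN family, per exon length, JUNB made up 8.78% and 11.7% with GFP and 14.9% and 14.0% uninduced, against 21.6% and 38.9% with constitutive and 22.2% and 17.9% with induced DNp63. The ratio of JUN to JUNB CPM per kb was 5.38 and 4.72 with GFP and 3.0 and 3.06 uninduced, against 1.57 and 0.803 with constitutive and 1.83 and 2.54 with induced DNp63, so each DNp63 library was below each control library.

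**Figure D3:**
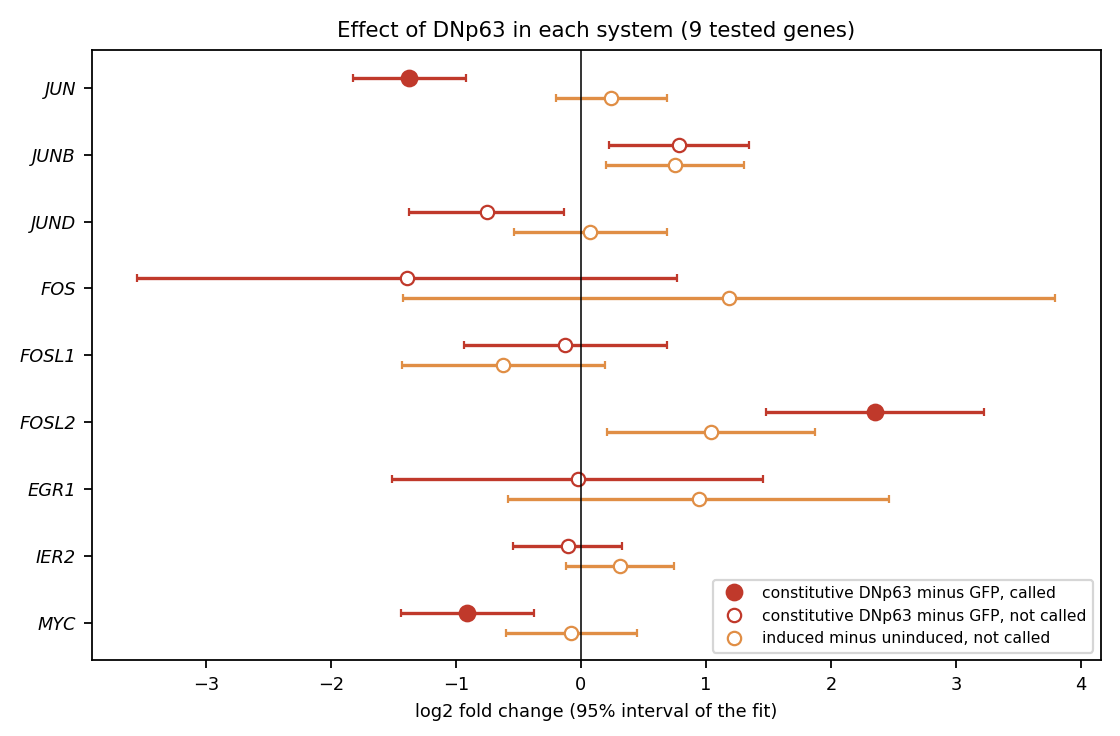
Log2 fold change of the 9 tested genes with constitutive DNp63 against GFP and with induced against uninduced cells; bars are 95% intervals from the edgeR fit. FOSL2 (2.35), JUN (−1.37) and MYC (−0.91) are called in the constitutive comparison and no gene in the induced one.

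EGR1, a zinc finger factor induced by growth signals through CArG boxes, varied widely between the replicates of the GFP and constitutive groups. It had 11.8 and 82.6 CPM in GFP replicates 1 and 2, against 23.1 and 71.0 in those of constitutive DNp63 with the same numbers. In both groups replicate 2, with the vector pLEX_307, was the higher, by 2.77 on the log2 scale with GFP and by 1.60 with DNp63. The ATF4 list was lower in replicate 2 of both groups, with a median log2 difference of −2.08 with GFP and −1.09 with DNp63, and its part in the EGR1 values was not tested. Over the same libraries 35 other immediate early genes had median differences of 0.04 and −0.43. The constitutive log2 fold change of EGR1 was −0.03 (95% interval −1.51 to 1.46; adjusted p = 0.987), and it was 2.00 without GFP replicate 2 (adjusted p = 0.154). In the inducible system EGR1 had 21.3 and 13.7 CPM uninduced and 31.1 and 35.3 induced, without overlap. The induced value of 0.94 (−0.58 to 2.47) was not called with the spread shared by all libraries (adjusted p = 0.963), and the fit on the inducible libraries alone called it, at 0.97 (adjusted p = 0.00276).

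**Figure D4:**
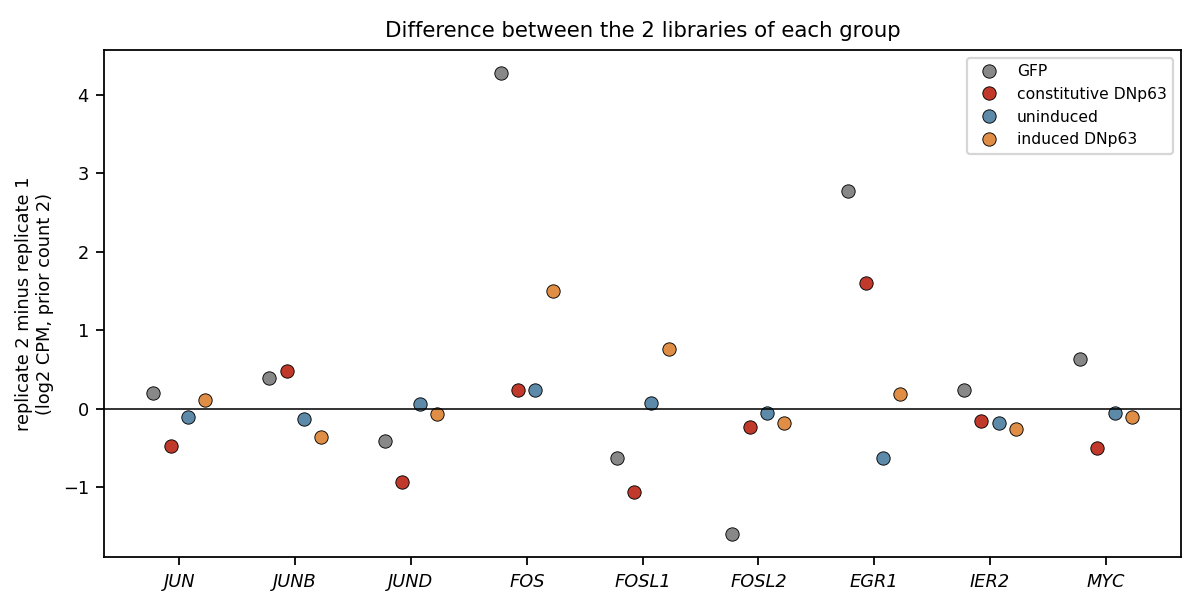
Replicate 2 minus replicate 1 in log2 CPM for the 9 tested genes, 1 point per group. FOS (4.28 with GFP) and EGR1 (2.77 with GFP, 1.60 with constitutive DNp63) lie farthest above 0 and FOSL2 (−1.60 with GFP) farthest below.

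IER2, the gene of a small nuclear immediate early protein, did not pass the test in any comparison. It had 77.4 and 91.7 CPM with GFP, 83.1 and 74.5 with constitutive DNp63, 75.1 and 66.3 uninduced and 95.3 and 79.9 induced. Neighbouring groups in the order of means overlapped, while the induced libraries both lay above the uninduced ones. Its log2 fold change was −0.11 (95% interval −0.54 to 0.33; adjusted p = 0.813) with constitutive and 0.31 (−0.12 to 0.74; adjusted p = 0.945) with induced DNp63.

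MYC fell with constitutive DNp63 and was not called in the inducible cells. Its CPM was 615 and 956 in GFP cells, 490.2 and 347 under constitutive DNp63, 586 and 565 uninduced and 566 and 525 induced. The GFP libraries were the highest and the constitutive DNp63 libraries the lowest, and the uninduced and induced libraries overlapped. The constitutive fall was by 0.91 on the log2 scale (SE 0.24, adjusted p = 0.0438), to 0.532 of the GFP level. That call was lost without GFP replicate 2, where the value was −0.57 (adjusted p = 0.222), without DNp63 replicate 2 (−0.68; 0.101), without uninduced replicate 1 (0.0919) or 2 (0.0911), without either induced replicate (0.1005 for each) and in the fit on the GFP and constitutive libraries alone (0.235). The induced log2 fold change of MYC was −0.08 (95% interval −0.60 to 0.45; adjusted p = 0.996), and the difference between the systems was 0.83 (0.09 to 1.58; adjusted p = 0.355). A list of 8 proliferation genes summed to 1046 and 1832 CPM in GFP cells and to 909 and 723 under constitutive DNp63, in the order of MYC across these 4 libraries. In the inducible system the list summed to 1723 and 1761 CPM uninduced and to 1454 and 1403 induced, without overlap, whereas the MYC levels overlapped there. The part of the list in the MYC values was not tested. Per exon length MYC had the highest mean of the 10 genes in each group, from 139 CPM per kb with constitutive DNp63 to 262 with GFP.

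Among the 9 tested members, 3 were called with constitutive DNp63 (FOSL2 higher, JUN and MYC lower), where 8.15% of all tested genes were called (4.17% higher, 3.98% lower). Averaged over both systems 3 were called (FOSL2 and JUNB higher, JUN lower), beside 5.67% of all tested genes (3.26% higher, 2.41% lower). With induced DNp63 edgeR called 0, beside 0.284% of all genes (0.236% higher, 0.0488% lower), and 2 had an unadjusted p below 0.05. DESeq2 also called 0 there, beside 0.894% of all genes. The fit on the inducible libraries alone called 4 (FOSL2, JUNB, EGR1 and FOSL1), where it called 6.43% of the 11991 genes it tested. The difference between systems was called for JUN alone, beside 0.545% of all genes (0.293% higher, 0.252% lower). The difference between the controls was called for 0 by edgeR, beside 0.00813% of all genes, and for 1 by DESeq2, beside 0.463%. By edgeR 3 members had an unadjusted p below 0.05 there. The share of all genes at that unadjusted threshold was not taken, so counts of members at it have no share beside them. DNp63 and control groups did not overlap for 5 members in the constitutive and 7 in the inducible system, against 44.4% and 46.9% of all tested genes. The median log2 fold change of the 9 was −0.13 with constitutive and 0.31 with induced DNp63, beside medians of 0.01 and −0.0012 over all genes.

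The other genes of the pathway were taken from 9 lists, and of the 16 tested bZIP factors that can pair with or resemble AP-1 proteins, 2 rose with constitutive DNp63 and 14 were not called (list median 0.37), beside 4.17% of all tested genes that rose and 3.98% that fell. MAF, a large MAF family factor, stood at 0.369 and 2.11 CPM in GFP cells and at 22.0 and 10.7 under constitutive DNp63. Its log2 rise was 3.50 ± 0.64 (adjusted p = 0.00812), a value that was 5.35 without GFP replicate 2. The GFP libraries held 11 MAF counts in all, and replicate 1 lay below the 1.09 CPM of 3 counts, so the size of the rise is uncertain. ATF5, a stress-responsive factor, rose by 1.88 ± 0.42 (adjusted p = 0.0219). The ATF5 value was 3.02 without GFP replicate 1 and 1.21 without GFP replicate 2, and the call was lost without induced replicate 1 (0.0618) or 2 (0.0614).

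Of 35 other immediate early genes tested, 4 rose and 4 fell with constitutive DNp63, beside 4.17% and 3.98% of all tested genes, with a list median of −0.0038. SGK1, a serum and glucocorticoid induced kinase, stood at 2.21 and 1.90 CPM in GFP cells, 25.4 and 58.9 under constitutive DNp63, 0.402 and 1.07 uninduced and 9.74 and 8.25 induced. SGK1 had 15 counts in all with GFP and 13 uninduced, where replicate 1 lay below the 0.592 CPM of 3 counts. It rose by 4.37 ± 0.51 (adjusted p = 0.000679) and, with induced DNp63, by 3.42 ± 0.54 (adjusted p = 0.0302), the single call of the edgeR fit over all libraries on these lists in the induced comparison. In that comparison DESeq2 called 2 genes of this list and the fit on the inducible libraries alone 13. Over all the genes each tested, the edgeR fit over all libraries called 0.284%, DESeq2 0.894% and the fit on the inducible libraries alone 6.43%. The induced call was lost without GFP replicate 2 (0.0504), uninduced replicate 1 (0.343) or 2 (0.293), or induced replicate 1 (0.340) or 2 (0.201). KLF5, a zinc finger factor of epithelial cells, rose by 1.85 ± 0.25 and ID2, an inhibitor of basic helix-loop-helix factors, by 1.12 ± 0.22 with constitutive DNp63 (adjusted p = 0.0015 and 0.0112). ID3, its relative, fell by 2.1 (SE 0.22, adjusted p = 0.000344), SIK1, a salt-inducible kinase, fell by 1.58 (SE 0.21, adjusted p = 0.00155), and TRIB1, a pseudokinase adaptor, fell by 1.59 (SE 0.26, adjusted p = 0.00444). The other two called were HBEGF, an EGF receptor ligand, at 2.91 ± 0.55 (adjusted p = 0.00979), and KLF4, a zinc finger factor, at −1.11 ± 0.22 (adjusted p = 0.0116), named here after their values were seen. The difference between the systems was called for 3 genes of the list, beside 0.545% of all tested genes (0.293% higher, 0.252% lower). It was 2.13 ± 0.36 for TRIB1 (adjusted p = 0.0326), 1.70 ± 0.30 for ID3 (0.0376) and 1.64 ± 0.29 for SIK1 (0.0378).

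The lists upstream of AP-1 are read beside the 8.15% of all tested genes called with constitutive DNp63. Of 30 tested genes of the ERK pathway and its feedback, 2 fell with constitutive DNp63, the phosphatase gene DUSP4, by 1.38 (SE 0.26, adjusted p = 0.0100), and ETV5, an ETS factor induced by ERK, by 0.80 (SE 0.21, adjusted p = 0.0405). DUSP4 was not called without GFP replicate 2 (0.0667), and ETV5 was not called without GFP replicate 1 (0.107), DNp63 replicate 1 (0.0939) or any inducible library (0.0916 to 0.0943). Of 22 genes of the JNK and p38 pathways, DUSP16, a JNK phosphatase gene, fell by 1.10 (SE 0.24, adjusted p = 0.0182), a call lost without GFP replicate 2 (0.0726) or induced replicate 1 (0.0535) or 2 (0.0536). Of the 6 serum response factor and ternary complex genes edgeR called 0 in each comparison, with 0 at an unadjusted p below 0.05, and DESeq2 called 0. Of 11 genes for the degradation of JUN, FOS and MYC, 2 fell with constitutive DNp63, the ubiquitin protease gene USP28, by 0.99 (SE 0.22, adjusted p = 0.0214), and the ubiquitin ligase gene SKP2, by 1.02 (SE 0.23, adjusted p = 0.0208). USP28 was not called without GFP replicate 1 (0.0594), DNp63 replicate 2 (0.0524) or any inducible library (0.0552 to 0.0593), nor SKP2 without GFP replicate 2 (0.127), DNp63 replicate 1 (0.0544) or any inducible library (0.0513 to 0.0563).

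Among 20 tested of 38 listed reported AP-1 target genes, 3 rose and 0 fell with constitutive DNp63, beside 4.17% and 3.98% of all tested genes, and the median of the list was 0.63. LAMB3, a laminin chain of the epithelial basement membrane, rose by 2.21 ± 0.39 (adjusted p = 0.00704), HMOX1, the heme oxygenase gene, by 2.04 ± 0.39 (adjusted p = 0.00996) and VEGFA, an angiogenic ligand, by 1.60 ± 0.40 (adjusted p = 0.0358). HMOX1 was not called without GFP replicate 2 (0.0763), and VEGFA was not called without GFP replicate 2 (1.08; 0.176), DNp63 replicate 1 (0.96; 0.131) or any inducible library (0.0619 to 0.0848). In the averaged comparison, where 3.26% of all tested genes rose, 4 rose, LAMB3, HMOX1, KRT8, a simple epithelial keratin, at 0.54 ± 0.12 (adjusted p = 0.0221), and TGFB1, a secreted growth factor, at 1.36 ± 0.35 (adjusted p = 0.0482). With induced DNp63 edgeR called 0 of the 20, with 2 at an unadjusted p below 0.05, and the list median was 0.17. DESeq2 called 0 there and the fit on the inducible libraries alone 4, beside 6.43% of all the genes it tested. All 4 averaged calls were lost without any 1 of the 4 inducible libraries, and those of HMOX1 (0.0750) and TGFB1 (0.123) also without GFP replicate 2, that of TGFB1 also without DNp63 replicate 2 (0.0802).

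Of 18 MYC partners and family members, 2 were called with constitutive DNp63, beside 4.17% of all tested genes that rose and 3.98% that fell. MYCN, the neural relative of MYC, rose by 2.87 ± 0.70 (adjusted p = 0.0334) and MXD3, a MAX-binding repressor, fell by 1.51 (SE 0.32, adjusted p = 0.0159). Averaged over both systems MYCN rose by 2.56 ± 0.47 (adjusted p = 0.00983), a call lost without GFP replicate 2, uninduced replicate 2 or induced replicate 1. With induced DNp63 it was 2.25 ± 0.62 and not called (adjusted p = 0.302), at 1.21 and 0.970 CPM uninduced against 6.41 and 3.73 induced. The constitutive MYCN rise started from 7 counts in all with GFP, at 1.11 and 0.845 CPM, against 10.6 and 3.87 CPM with constitutive DNp63. MYCN kept its call without DNp63 replicate 2 and lost it without each of the other 7 libraries (adjusted p from 0.0554 to 0.210), and MXD3 lost it without GFP replicate 2 (0.126). Of 48 reported MYC targets, 5 fell and 0 rose with constitutive DNp63, where 3.98% of all tested genes fell and 4.17% rose, with a list median of −0.21. They were SORD, of polyol metabolism (fell by 1.31), IMPDH2, of guanine nucleotide synthesis (fell by 1.02), AHCY, of the methionine cycle (fell by 0.95), and BOP1 and FBL, of ribosome production (fell by 0.83 and 0.68), with adjusted p-values between 0.00438 and 0.0427. BOP1 and FBL were not called without GFP replicate 2 (0.0847 and 0.156) or any inducible library, nor FBL without DNp63 replicate 2 (0.065). With induced DNp63 edgeR called 0 of the 48, with 1 at an unadjusted p below 0.05, and the list median was −0.20, with 5 values above 0. DESeq2 called 0 there and the fit on the inducible libraries alone 3, beside 6.43% of all the genes it tested. The fit on the GFP and constitutive libraries alone called 5 of the other immediate early genes, 1 bZIP factor and 0 genes of the 7 other lists. Of all 11629 genes it tested, that fit called 2.36%.

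**Figure D5:**
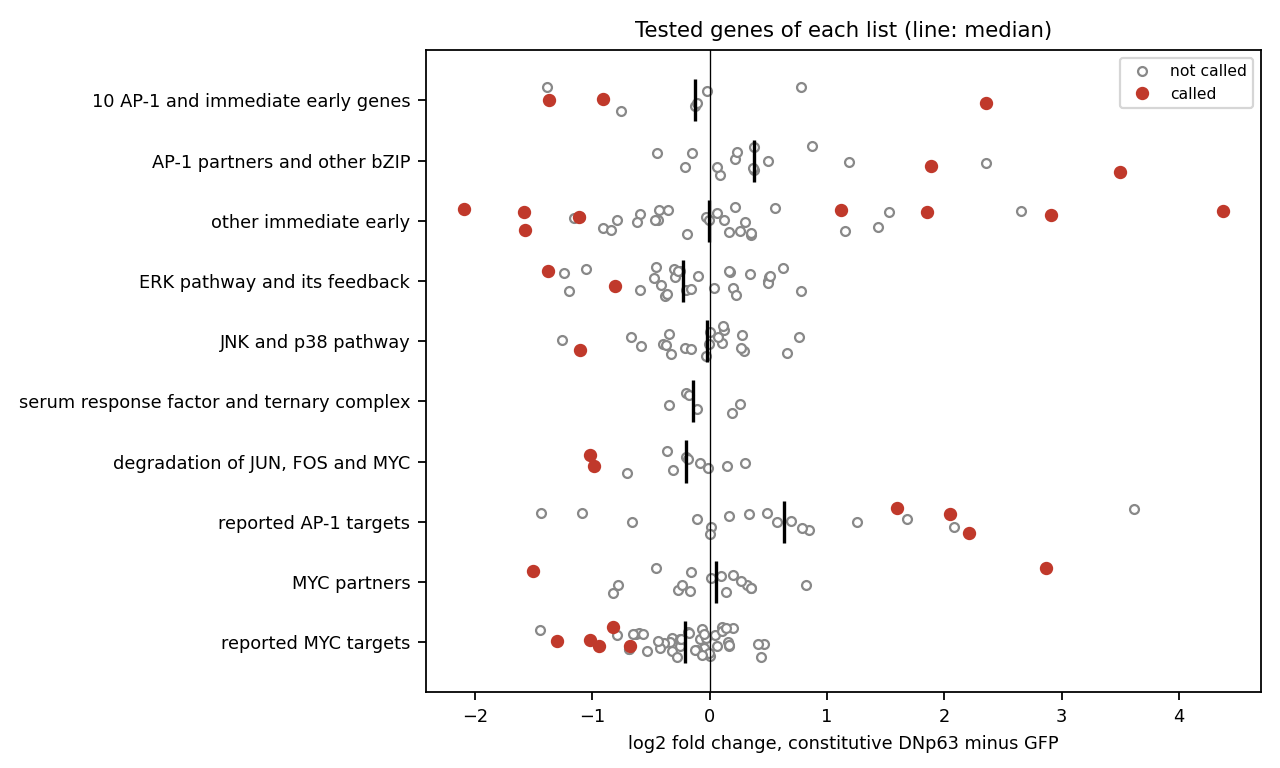
Log2 fold change with constitutive DNp63 against GFP (horizontal axis) of the tested genes in each list, 1 point per gene; filled points were called at an adjusted p below 0.05 and the black line is the list median. Medians lie at 0.63 for reported AP-1 targets, 0.37 for bZIP factors and −0.21 for reported MYC targets, and most points of each list are open.

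The genes whose levels followed a member most closely over the 8 libraries, among those with a mean of at least 10 CPM, are given as a description, since all points share libraries and depth. For JUN they were TRIB1 (Pearson r of log2 CPM 0.977), MMAB (0.964) and BTG3 (0.956), and for JUNB they were HAS2-AS1 (0.983), CDH11 (0.952) and JAG1 (0.951). For MYC they were DUSP4 (0.961), PCNX1 (0.955) and RASD1 (0.951), and for EGR1 they were KCTD1 (0.962), CACUL1 (0.935) and SOGA1 (0.928). FOSL1 was followed by SMCHD1 (0.986), ZNF16 (0.965) and SNHG15 (0.959), and FOS, whose pattern rests on few counts and on GFP replicate 2, by TP53TG1 (0.950), PTS (0.934) and NRP2 (0.920).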

How the data were processed

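RNA-seq libraries of 8 LK2 samples in 4 groups were analysed. The authors deposited whole-number counts of reads per gene; per the submitters' processing notes TopHat2 2.1, SAMtools, HTSeq and DESeq2 were used with hg19 (GRCh37), and no source used here gives the strand setting or the annotation, so that reads of overlapping antisense genes cannot be told apart. The counts were fitted here with the quasi-likelihood test of edgeR 4.0.16 (R 4.3.3, limma 3.58.1; legacy estimates) on 4 group means of 8 libraries, with TMM scaling, a filter at a minimum count of 10 (12303 of 26760 genes kept), p-values adjusted by Benjamini-Hochberg across every tested gene, and a threshold of 0.05 on the adjusted p for a call. Comparisons were constitutive DNp63 minus GFP, induced minus uninduced, their mean, their difference, and uninduced minus GFP. Intervals are 95% intervals of that fit. CPM values are counts scaled to the TMM library size, and CPM per kb divides them by the union of exons in GENCODE (GRCh38). DESeq2 1.42.0, other scaling and filters, a replicate block, single-system fits and leaving out each library were alternatives. The scripts were tested on simulated data. Named genes were all 10 members, up to 6 called genes of each list by smallest p, and the 3 genes most correlated with each of 6 members. A result of the bZIP list that these rules would name is not reported here. The members, lists and tests were chosen with earlier results of these data known. Library pairs of a group differed by more than sampling noise, and not equally. The chi-square over its degrees of freedom was 17.7 for GFP, 24.6 for constitutive DNp63, 3.76 for uninduced and 5.24 for induced pairs. The fit over all libraries shares its estimate of the spread among these groups. A call with constitutive DNp63 and none with induced DNp63 is therefore not by itself a difference in effect.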

Additional observations from a re-analysis of the deposited data

Results flagged for a closer look

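For 4 genes of the members and lists the effect of DNp63 differed between the constitutive and the inducible system by the test of the difference itself (edgeR quasi-likelihood test, induced minus constitutive log2 fold change). Over all tested genes that test called 0.545%. JUN had a difference of 1.62 (adjusted p = 0.0378), from −1.37 with constitutive and 0.24 with induced DNp63. TRIB1 had a difference of 2.13 (adjusted p = 0.0326), ID3 of 1.70 (0.0376) and SIK1 of 1.64 (0.0378). All 4 fell with constitutive DNp63, and none was called with induced DNp63 by edgeR. Between the controls, uninduced minus GFP, JUN and TRIB1 had log2 differences of −1.16 and −1.32, which did not pass the test (adjusted p = 0.164 and 0.198). The 4 differences were not called without GFP replicate 2 (adjusted p from 0.0781 to 0.0806) or without any 1 of the inducible libraries (0.176 to 0.300).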

How the results depend on the processing

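The rise of FOSL2 kept its direction and its call in all 14 alternatives of the averaged comparison and all 15 of the constitutive one. Over single genes and alternatives, 1080 values kept their direction and side of the threshold, 179 lost the call, 25 gained it and 22 changed sign, all of them uncalled. Without a filter on low counts, 1372 genes were called averaged (against 697), 1791 constitutive (1003), 242 induced (35), 558 for the difference between systems (67) and 245 for the controls (1), and 1 member induced, 2 for the difference and 3 for the controls. DESeq2 called 110 genes induced, 265 for the difference and 57 for the controls, with 1 member. The fits on 1 system called 275 genes and 1 member constitutive and 771 genes and 4 members induced. The replicate number marks the vector in the GFP and constitutive libraries, where deviations from the group means correlated by 0.22 over 12303 genes, and has no stated meaning in the inducible ones (−0.0334). A replicate block called 5 members and 1397 genes constitutive (11.4% of those tested), JUNB (adjusted p = 0.0376) and JUND (0.0258) among the members, 87 genes induced and 270 for the difference. With each library left out in turn, a lone library being assumed to vary like the others, genes called ranged from 225 to 1115 averaged, 452 to 1440 constitutive, 2 to 104 induced, 0 to 446 for the difference and 0 to 43 for the controls, and members called from 1 to 5, 2 to 5, 0 to 1, 0 to 2 and 0 to 1. Leaving out single libraries, FOS averaged ranged from −0.67 to 2.04, constitutive from −2.27 to 2.86, the difference from −1.66 to 3.45 and the controls from −4.24 to 0.90, EGR1 averaged from −0.068 to 1.47, constitutive from −1.08 to 2.00, the difference from −1.06 to 2.03 and the controls from −2.26 to 0.54, FOSL1 constitutive from −0.75 to 0.33 and the difference from −0.96 to 0.13, the JUNB difference from −0.24 to 0.24, IER2 constitutive from −0.23 to 0.0090 and FOSL2 in the controls from −0.74 to 0.87. GFP replicate 2 gave the sign changes of FOS constitutive, difference and controls, of the same 3 values of EGR1 and of IER2 constitutive, and GFP replicate 1 that of FOSL2. FOS averaged changed sign without GFP replicate 2, uninduced replicate 2 (0.02) or induced replicate 1 (0.26) and with the replicate block (0.20), and EGR1 without DNp63 replicate 2 (averaged), without DNp63 replicate 1 (0.53, constitutive) and with the replicate block (0.24, constitutive). FOSL1 constitutive changed sign without GFP replicate 1 (0.21) or DNp63 replicate 2 and its difference without DNp63 replicate 1, and the JUNB difference without GFP replicate 1 (0.15), DNp63 replicate 2, uninduced replicate 1 (0.03) or induced replicate 2 (0.14). The cause of these changes was not tested. Scaling by the median of ratios changed the log2 fold changes by a median over all genes of at most 0.0046 in size. Depth limits FOS and FOSB, which had as few as 1 and 0 counts in a library.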
